A study of Homo sapiens with 8 samples.

Results

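HLA class I antigen presentation is described here by 9 of the 27696 genes in the count table: the heavy chains HLA-B, HLA-C, HLA-E and HLA-F, their light chain B2M, the peptide transporter subunits TAP1 and TAP2, tapasin (TAPBP) and the immunoproteasome subunit PSMB9. Members were chosen by gene symbol. The recipient cells were IMR90 fibroblasts, an established strain of human fetal lung fibroblasts from 1 donor. For 3 days they grew in medium taken from IMR90 ER:RAS fibroblasts, which carry a RAS oncogene fused to the estrogen receptor and become senescent on 4-hydroxytamoxifen (4-OHT). The medium was taken at day 0 (D0), day 4 (D4), day 7 (D7) or day 10 (D10) of induction. All 4 groups therefore received medium from ER:RAS cells, the D0 controls included, and the recipients themselves were not induced. Each group had 2 libraries, replicates 1 and 2, from 2 independent experiments. The comparison asks how the recipients' transcripts differed as the senescence-associated secretory phenotype (SASP) of the donor cells advanced.

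Class I molecules show peptides from inside the cell to CD8 T cells and to natural killer cells. The proteasome cuts proteins into peptides, TAP1 and TAP2 carry them into the endoplasmic reticulum, tapasin holds an empty heavy chain at the transporter, and a loaded heavy chain leaves for the surface only with B2M. HLA-E presents leader peptides of other class I chains to inhibitory receptors of natural killer cells. The pathway is widely expressed at a basal level and is known to respond to interferon and to NF-κB.

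Total counts lay between 11708193 and 13395912 per library, with a median of 13215100. Expression is given as CPM, the edgeR unit that divides counts by library totals scaled with the TMM method. Of 10 fibroblast markers, all had over 10 counts in every library. Their summed level was 46202 to 58048 CPM for D0, 43026 to 46903 for D4 and 44838 to 48446 for D7. For D10 it was 48416 CPM in experiment 1 and 21216 in experiment 2. Between these D10 libraries, COL1A1 went from 9432 CPM in experiment 1 to 1295 in experiment 2, and COL1A2 from 12386 to 2862. FN1 was at 13763 and 11155 CPM in the same order. LUM alone was higher in experiment 2, at 167 and 258 CPM. The summed leukocyte markers, of which 5 of 7 are in the table, stayed between 1.67 and 4.11 CPM, with 1.67 to 4.11 in D0, 2.09 to 3.57 in D4, 3.34 to 3.74 in D7 and 2.45 to 3.56 in D10. The 5 endothelial markers summed to between 1.49 and 4.35 CPM and the 5 epithelial ones to between 1.01 and 2.61 CPM, and no marker in the table was at 0 in every library. In bulk RNA, fewer expressing cells and less RNA per cell cannot be told apart.

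Class I genes are known to be controlled through short elements near their starts, and stretches with the letters of such elements are shown because several members share them. Promoters of 8 of the 9 members were in the RefSeq table (GRCh38.p14), and the 250 bases before each RefSeq start were searched on both strands. The letters searched were GAAA, any 2 bases and GAAA again for the interferon-stimulated response element, and GGG, any 2 bases, TT, any base and CC for the κB site. A shorter core of the response element was GAA, any 2 bases and GAAA, and the enhancer A core was GGGGATT followed by C, which overlaps the κB site of HLA-B. The X2 box core was TGACGC, and the CCAAT box was searched as named. In the lines below, capitals mark matches of these motifs other than CCAAT, each sequence is read 5′ to 3′ on the gene's own strand, and overlapping copies run together. TAP1 and TAPBP are shown as short stretches around their matches. These 4 stretches precede the RefSeq start but lie wholly within exons that GENCODE 29 annotates for the same gene, so they are not upstream of every annotated transcript. The stretches of HLA-B, HLA-C and B2M overlap 0 bases of such exons.
HLA-B, minus strand of chr6:31357224-31357364: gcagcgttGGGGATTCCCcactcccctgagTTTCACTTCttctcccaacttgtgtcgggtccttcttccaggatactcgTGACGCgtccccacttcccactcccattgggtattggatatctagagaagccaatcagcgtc
HLA-C, minus strand of chr6:31272137-31272273: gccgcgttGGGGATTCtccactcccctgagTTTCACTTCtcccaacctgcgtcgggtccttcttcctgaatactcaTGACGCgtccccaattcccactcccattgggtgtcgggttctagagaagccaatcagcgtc
B2M, plus strand of chr15:44711357-44711477: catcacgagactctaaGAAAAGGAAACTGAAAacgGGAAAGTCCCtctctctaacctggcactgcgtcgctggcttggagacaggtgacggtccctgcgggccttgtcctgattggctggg
TAP1, minus strand of chr6:32853817-32853844: ggccgcTTTCGATTTCGCTTTCccctaa
TAP1, minus strand of chr6:32853759-32853784: ctgttcctGGGACTTTCCgagagccc
TAPBP, minus strand of chr6:33314119-33314140: cagagcGGGGATTTCCaccgcc
TAPBP, minus strand of chr6:33314079-33314105: tttggagGAAAGTGAAAGTGAAAggag

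The upstream 250 bases of HLA-B and HLA-C aligned with 89.0% identity over the aligned columns, those of HLA-B and HLA-F with 80.4%. HLA-B holds a full κB match where HLA-C holds only the enhancer A core. The response element was found in 5 of the 8 promoters (B2M, TAP1, TAP2, TAPBP and HLA-F) and in 3.02% of 35116 promoters of the same length. The κB letters were found in 4 of 8 (HLA-B, B2M, TAP1 and TAPBP) and in 5.07% of all. The X2 core was found in HLA-B, HLA-C and TAP2 and in 7.67% of all, and the shorter response element core in the same 3 members and in 6.56%. The enhancer A core was found in HLA-B and HLA-C and in 0.772% of all promoters. CCAAT was found in 6 of the 8 and in 32.0% of all. TAP1 and PSMB9 start 488 bases apart on opposite strands, with the start of PSMB9 outside the searched window of TAP1. In TAP2, 17 of the 46 bases around its response element match lie within its GENCODE exons. A match describes letters in this window and does not show binding.

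Per kilobase of transcript, taken as the median length of the principal transcripts, B2M stood above all other members, at 1080.2 ± 81.1 CPM per kb (SD, n = 8 libraries) with a range of 974 to 1205. Its principal transcripts run from 943 to 1705 bases, so its value depends on which of them is made. HLA-B followed at 230 ± 44.5 (168 to 315), HLA-C at 175 ± 35.6 (127 to 226) and HLA-E at 170 ± 31.2 (128 to 204) CPM per kb. The ranges of these 3 heavy chains overlapped. TAPBP stood at 112 ± 29.1 (72.3 to 160), overlapping HLA-C and HLA-E. TAP1 came next at 26.4 ± 6.12 (19.7 to 33.1), apart from its neighbours on both sides. TAP2 at 11.8 ± 2.40 and PSMB9 at 9.44 ± 2.12 CPM per kb overlapped. HLA-F, a nonclassical heavy chain, was at 0.304 ± 0.0895 CPM per kb. The fibroblasts thus held transcripts of every step from peptide to surface in all groups, with HLA-F close to the limit of counting.

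Media were compared by edgeR's quasi-likelihood test on the counts of all 13798 genes that passed a filter on low counts, with Benjamini-Hochberg adjustment and a threshold of 0.05. Of the 9 members, 8 passed the filter and HLA-F did not. In each of the 4 comparisons, 0 of the 8 members were called. Over all genes, the share called was 0% and 0% for the D4 and D7 media and 0.29% for D10, all against D0, and 0% between D10 and D7. In this fit by group, members with an unadjusted p under 0.05 also numbered 0 in each comparison. The shares of all genes were 2.96%, 4.34%, 7.94% and 3.54%. A replicate block for the experiment called 0.275%, 1.25%, 4.99% and 0.319% of all genes in the same order, and 0 members. Members with an unadjusted p under 0.05 were not counted with the block, where HLA-B at D10 had an unadjusted edgeR p of 0.0379. DESeq2 called 0.287%, 0.785%, 2.17% and 0.446% of the genes to which it gave an adjusted p, and 0 members. Groups of 2 libraries that do not overlap were also counted. Both libraries lay above both of the other group for 9.73%, 13.7% and 15% of all genes in the comparisons of D4, D7 and D10 with D0, and for 13.7% in that of D10 with D7. Both lay below for 12.6%, 15.2%, 16% and 12.2%. Members above numbered 1, 0, 1 and 0 of 8, and members below 0, 0, 0 and 1.

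HLA-B (ENSG00000234745.10, GRCh38, chromosome 6 from 31269491 to 31357188, minus strand), a classical heavy chain, had the largest difference at D10 of the 8 members tested. In experiments 1 and 2, D0 gave 364 and 260 CPM, D4 gave 355 and 280, D7 gave 345 and 379, and D10 gave 488 and 369. Both D10 libraries lay above both D0 libraries. The log2 difference at D10 was 0.46 (standard error 0.28, 95% interval -0.18 to 1.10, adjusted p = 0.887). It was 0.42 in experiment 1 and 0.51 in experiment 2. The block narrowed the interval to 0.03 to 0.89 around the same estimate, with an edgeR adjusted p of 0.239, the lowest of any member in any setting tried. At D7 the experiments differed in sign, with a log2 difference of -0.08 in experiment 1 and 0.54 in experiment 2.

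HLA-C (ENSG00000204525.16, chromosome 6 from 31268749 to 31272130, minus strand), a classical heavy chain that also binds inhibitory receptors on natural killer cells, gave 316 and 195 CPM with D0 medium and 321 and 219 with D4. The D7 libraries held 263 and 258 CPM, those of D10 348 and 228. Experiment 2 was the lower in each medium, by least at D7, and D10 and D0 overlapped. Its log2 difference at D10 was 0.17 (standard error 0.34, 95% interval -0.61 to 0.95, edgeR adjusted p = 0.998). The similar upstream sequence of HLA-B and HLA-C thus stood beside D10 estimates of 0.46 and 0.17 on the log2 scale, whose intervals overlapped and whose difference was not tested. The HLA-B to HLA-C ratio of CPM per kb was 1.14 and 1.32 for D0, 1.1 and 1.27 for D4, 1.3 and 1.46 for D7, and 1.39 and 1.61 for D10. Within both experiments the D10 ratio exceeded the D0 ratio, and both D10 ratios lay above both D0 ratios. For the CPM of single genes, the same held for 15% of all genes tested. No such share was computed for ratios, and the change of this ratio was not tested.

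HLA-E (ENSG00000204592.8, chromosome 6 from 30489467 to 30494205, plus strand) gave 518 and 334 CPM for D0, 531 and 363 for D4, 496 and 392 for D7, and 520 and 388 for D10. Experiment 1 hardly moved between media, and experiment 2 was lowest at D0. The log2 difference at D10 was 0.09 (standard error 0.33, 95% interval -0.67 to 0.85, edgeR adjusted p = 0.998). HLA-F (ENSG00000204642.13, chromosome 6 from 29722775 to 29738528, plus strand) was counted 8 and 4 times in the D0 libraries, 8 and 6 times in D4, 4 and 6 times in D7, and 7 and 8 times in D10. At this depth no difference in HLA-F was detectable. Without the filter its log2 difference at D10 was 0.32, with a 95% interval from -1.19 to 1.83 (edgeR adjusted p = 1).

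B2M (ENSG00000166710.17, chromosome 15 from 44711487 to 44718877, plus strand), the invariant light chain, gave 1139 and 1066 CPM for D0, 1191 and 1222 for D4, 1123 and 1303 for D7, and 1244 and 1053 for D10. Its libraries stayed within a narrow band and D0 overlapped D10. At D4 both libraries were above both of D0. The log2 difference was 0.13 at D4 (95% interval -0.46 to 0.72, edgeR adjusted p = 1) and 0.06 at D10 (95% interval -0.53 to 0.64, adjusted p = 0.998). Its levels in the 2 experiments overlapped, as those of HLA-B did and those of HLA-C and HLA-E did not.

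**Figure D1:**
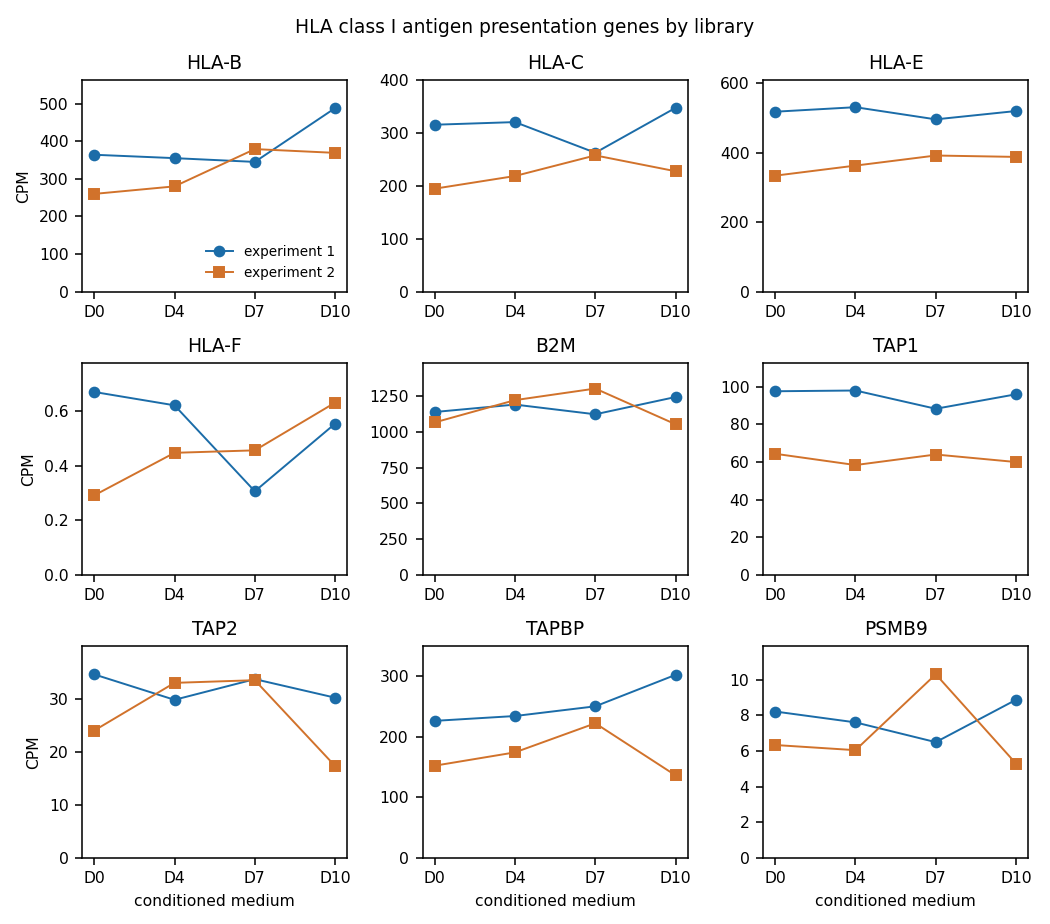
Level of each of the 9 genes in CPM (vertical axis, from 0) in the 8 libraries, by conditioned medium (horizontal axis), with blue circles for experiment 1 and orange squares for experiment 2. HLA-B is highest at D10 in experiment 1, at 488 CPM, while TAP1, TAPBP, HLA-E and HLA-C lie lower in experiment 2 in all 4 groups.

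TAP1 (ENSG00000168394.10, chromosome 6 from 32845209 to 32853978, minus strand), one of the transporter's subunits, gave 97.5 and 64.3 CPM for D0, 97.9 and 58.3 for D4, 88.2 and 63.9 for D7, and 95.9 and 59.9 for D10. Each experiment kept its own level through all media. The log2 difference at D10 was -0.05 (standard error 0.36, 95% interval -0.89 to 0.79, edgeR adjusted p = 0.998). With the block the interval shrank to -0.37 to 0.24, the narrowest of the members at D10. A change of 1 on the log2 scale in either direction lay outside both intervals. The same held at D10 for B2M, HLA-C, HLA-E and PSMB9 in the fit by group.

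TAP2 (ENSG00000204267.13, chromosome 6 from 32821833 to 32838780, minus strand), the other transporter subunit, gave 34.6 and 24.0 CPM for D0, 29.8 and 33.0 for D4, 33.7 and 33.5 for D7, and 30.2 and 17.3 for D10. The D10 library of experiment 2 was the lowest of the 8. Both D10 libraries were below both D7 libraries. The log2 difference between D10 and D7 was -0.50 (standard error 0.31, edgeR adjusted p = 1), and -0.54 with the block (edgeR adjusted p = 0.462). Against D0 it was -0.30 at D10 (95% interval -1.01 to 0.40, edgeR adjusted p = 0.998) and 0.04 without the D10 library of experiment 2. In that library the summed fibroblast markers were also low, with COL1A1 and COL1A2 far below the D10 library of experiment 1. The part of that library in these values was not tested. The TAP1 to TAP2 ratio of CPM per kb ranged from 1.49 to 2.93 over the libraries. It was 2.38 and 2.26 at D0 and 2.68 and 2.93 at D10. Upstream of TAP2 the response element lies in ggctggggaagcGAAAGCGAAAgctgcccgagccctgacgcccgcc (minus strand of chr6:32838764-32838809, the element in capitals).

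TAPBP (ENSG00000231925.11, chromosome 6 from 33299694 to 33314387, minus strand), which edits the bound peptide at the transporter, was counted 2694 and 2086 times at D0, and 3820 and 1730 times at D10. In CPM this was 226 and 152 for D0, 234 and 174 for D4, 250 and 222 for D7, and 302 and 136 for D10. At D10 experiment 1 held the highest and experiment 2 the lowest library of all 8. The log2 difference at D10 was 0.42 in experiment 1 and -0.15 in experiment 2, and 0.22 in the fit of both (standard error 0.39, 95% interval -0.69 to 1.12, edgeR adjusted p = 0.998). Without the D10 library of experiment 2 it was 0.68, and without that of experiment 1 -0.45.

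PSMB9 (ENSG00000240065.7, chromosome 6 from 32844136 to 32859585, plus strand) replaces the constitutive catalytic subunit PSMB6 in the immunoproteasome. It gave 8.21 and 6.33 CPM for D0, 7.60 and 6.04 for D4, 6.49 and 10.3 for D7, and 8.87 and 5.28 for D10. The groups overlapped, and the highest library was D7 of experiment 2. Its log2 difference at D10 was -0.04 (standard error 0.37, 95% interval -0.90 to 0.83, edgeR adjusted p = 0.998). The ratio of PSMB9 to PSMB6, both in CPM per kb, lay between 0.0483 and 0.122, so that the constitutive transcript was the more abundant in every library. The other immunoproteasome subunits gave ratios of 0.117 to 0.209 for PSMB8 over PSMB5 and 0.0330 to 0.0866 for PSMB10 over PSMB7.

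**Figure D2:**
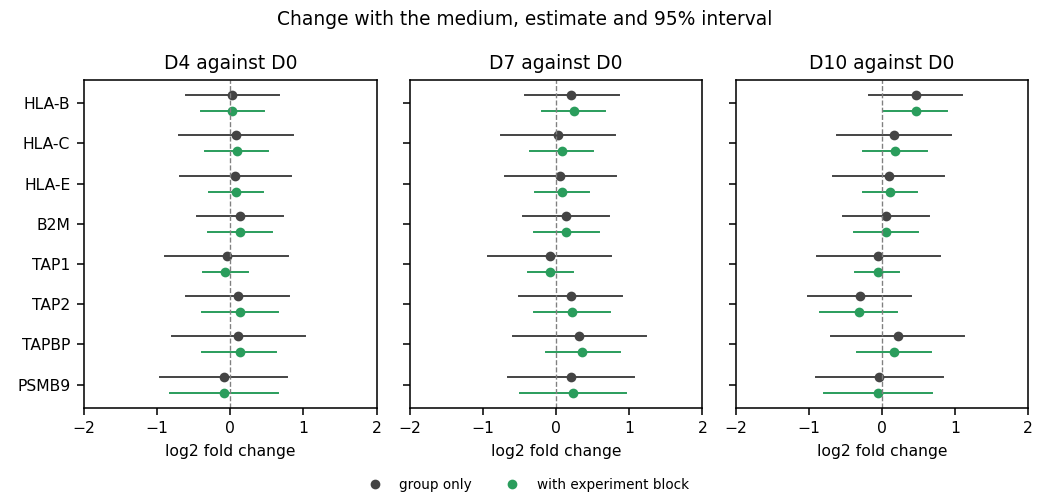
Log2 fold change against D0 (horizontal axis) with its 95% interval for the 8 members tested, in panels for D4, D7 and D10, from the fit by group (grey) and with the experiment as a block (green). All intervals of the fit by group span 0, and with the block the D10 interval of HLA-B, from 0.03 to 0.89, lies above 0.

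Over the 8 members tested, log2 differences ran from -0.09 to 0.13 at D4, from -0.09 to 0.32 at D7 and from -0.30 to 0.46 at D10. Their median was 0.07 at D4, 0.17 at D7 and 0.08 at D10, beside 0.01, 0.00 and 0.00 over all genes. The median size regardless of sign was 0.09, 0.17 and 0.13, beside 0.17, 0.18 and 0.23 over all genes. At the 2 libraries per group available, the intervals of the fit by group at D10 allowed differences of up to 0.64 for B2M and up to 1.12 for TAPBP on the log2 scale, so absence of a call does not show equal levels.

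Reads from similar heavy chain genes may be assigned to the wrong one. Of all words of 50 bases in its transcripts, HLA-B shared 2.7% with another gene, HLA-C 5.4%, HLA-E 4.3% and HLA-F 1.0%, measured on the reference sequence and not on the alleles of IMR90. TAP2 shared 31.3% of its words with AL669918.1, a gene on the same strand that covers 32.3% of its exon bases, so that its counts depend on how such reads were assigned. B2M shared none. AL671883.2 overlaps 17.8% of the exon bases of HLA-B on the other strand, PSMB8-AS1 9.5% of those of TAP1, and several genes 28.5% of those of HLA-F. Whether counting used strand is not given in the sources used here.

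Of 14 other genes listed with class I processing and loading, 0 were called at D10, with a median log2 difference of 0.11. That list also holds MICA and MICB, stress-induced ligands of natural killer cells that are not processing or loading genes. The lowest estimate was that of MICB, at -0.28 (edgeR adjusted p = 0.998). PSMB8 and PSMB10, the immunoproteasome partners of PSMB9, were at 0.02 and -0.22 on the log2 scale. Of the 14 genes of the constitutive 20S proteasome, 0 were called, with a median of -0.04 and estimates from -0.19 (PSMB6) to 0.39 (PSMA6). PSMB5 and PSMB7 were at -0.08 and 0.22.

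Among the 24 regulators of class I transcription and interferon signalling, 0 were called at D10 by group, with a median of 0.07. NLRC5, the transactivator of class I promoters, was at 17.3 and 20.9 CPM at D0 and 14.4 and 19.5 at D10 (log2 difference -0.17, edgeR adjusted p = 0.998). IRF1, which binds the response element, was at 55.2 and 25.4 CPM at D0 and 59.2 and 25.6 at D10. The NF-κB subunits RELA and NFKB1 were at 0.02 and 0.24 on the log2 scale. RELB and NFKB2, of the noncanonical NF-κB pathway, were called with the block and rose by 1.30 and 0.94 on the log2 scale, with adjusted p of 0.0086 and 0.0059 in edgeR. By group their adjusted p was 0.0834 and 0.191. The block called 4.99% of all genes at D10, and the fit by group 0.29%. NFKB2 was named after its values were seen. The lowest estimate among regulators was IRF9 at -1.25, from at most 3.13 CPM (edgeR adjusted p = 0.649). The members whose searched window holds the κB letters had D10 estimates of 0.46 (HLA-B), 0.06 (B2M), -0.05 (TAP1) and 0.22 (TAPBP). Of these 0 were called, beside 0.29% of all genes. Tested members whose searched window lacks the letters had 0.17 (HLA-C), -0.30 (TAP2) and -0.04 (PSMB9). A link between the letters and the estimates was not tested.

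Class II molecules, which present peptides from outside the cell, were near the limit of counting, and 5 of 11 genes of their list were tested. The protease CTSS rose from 4 and 9 reads with D0 medium to 108 and 123 with D10 medium (log2 difference 4.16, standard error 0.53, edgeR adjusted p = 0.0379). CTSS was also called with the block (edgeR adjusted p = 0.00146) and by DESeq2 (adjusted p = 5.3e-08). In the fit by group the call was lost without either D0 library, without either D7 library and without the D10 library of experiment 2. HLA-DMA, which loads class II, had the lowest estimate at -1.5 (edgeR adjusted p = 0.157). It was called with the block (edgeR adjusted p = 0.00692) and by DESeq2 (adjusted p = 0.0277). Over all genes at D10, the block called 4.99%, and DESeq2 2.17% of those with an adjusted p.

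**Figure D3:**
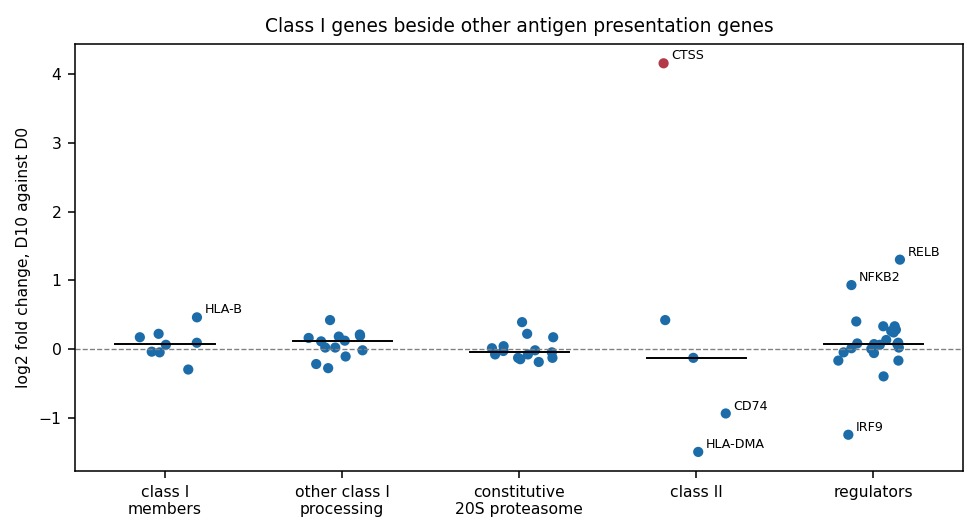
Log2 fold change at D10 against D0 (vertical axis) for tested genes of 5 lists, with the black line at the median of the genes drawn, red for genes called by edgeR's test by group and blue for the others. The members lie between -0.30 and 0.46, and CTSS, at 4.16, is the red point.

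For 4 members, TAP1, TAPBP, HLA-E and HLA-C, the libraries of the 2 experiments did not overlap. In the blocked fit, experiment 2 against experiment 1 was tested after the values had been seen. Of the 8 members tested, 4 were lower in experiment 2 in all 4 groups, and all 4 libraries of experiment 2 lay below all 4 of experiment 1 for these, as for 15.7% of all genes tested. The same 4 members were called lower, against 16.2% of all genes, and 34.8% of all genes were called in either direction. TAP1 was at 94.9 ± 4.50 CPM in experiment 1 and 61.6 ± 2.96 in experiment 2 (SD, n = 4 libraries each). Its log2 difference was -0.62 (standard error 0.10, edgeR adjusted p = 0.003). TAPBP differed by -0.58 (adjusted p = 0.0232), HLA-E by -0.49 (adjusted p = 0.0136) and HLA-C by -0.47 (adjusted p = 0.0277), all on the log2 scale. B2M did not share this difference in estimate, at 1174 ± 54.7 and 1161 ± 122 CPM (log2 difference -0.02, 95% interval -0.33 to 0.29, adjusted p = 0.917). NLRC5 lay the other way, at 16 ± 2.12 and 21.9 ± 2.77 CPM (log2 difference 0.46, edgeR adjusted p = 0.0172). Leaving out either library of a medium breaks that medium's pair. When a library of D0 or of D4 was left out, 1 of the 4 calls was left, TAP1. When a library of D7 or D10 was left out the number called was 4. Without the D10 library of experiment 2, TAPBP differed by -0.39 and TAP1 by -0.60. The p-values cover the spread between libraries within the experiments, of which there were 2. What set the experiments apart was not tested.

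**Figure D4:**
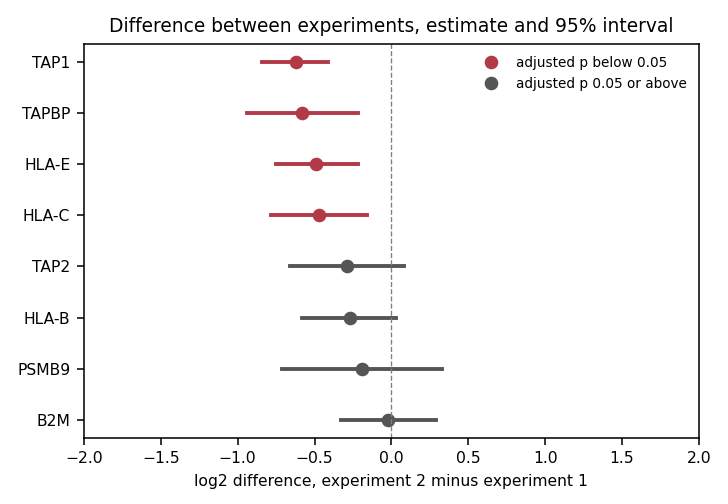
Log2 difference of experiment 2 minus experiment 1 (horizontal axis) with its 95% interval for the 8 members tested, from the fit with the experiment as a block, red where the adjusted p is below 0.05. TAP1, at -0.62, lies farthest from 0 and B2M, at -0.02, nearest.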

How the data were processed

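RNA of 8 libraries in 4 groups was analysed. According to the labels, libraries were stranded and made from poly(A) RNA. The submitters' processing notes name STAR 2.5, DESeq2 and GRCh38. The authors deposited raw read counts per gene, and 8 columns of normalized RPM values by the authors that were left unused. In 1 column header, DO was read as D0. Counts were filtered with filterByExpr, scaled with TMM and fitted by group with edgeR 4.0.16 (glmQLFit and glmQLFTest, R 4.3.3), and adjusted p-values were called at 0.05. Common dispersion was 0.0792, and 0.0242 with the block. Replicate numbers were taken to pair the libraries. The study's methods state 2 independent experiments, and the sample titles give replicates 1 and 2. Deviations from group means correlated with r from 0.418 to 0.722 in all 6 pairs of groups. Alternatives were the replicate block, the test and the size factors of DESeq2 1.42.0, either no filter or a minimum of 10 counts per library, a fit of only the groups compared, and leaving out each library. Total-count scaling and the test between experiments were added after seeing the data. The methods were run on simulated data with the dispersion of 0.0242 for every gene and changes of 1 or 2 on the log2 scale. That run does not show how often the smaller differences of the members would be called. Positions and transcripts came from GENCODE 29, which held 99.6% of identifiers, and promoters from RefSeq. Members and lists were chosen with earlier results of these data known. Named were all members, the regulators IRF1, NLRC5, RELA and NFKB1, the 3 immunoproteasome pairs, and in each list the highest and lowest estimate at D10 and every gene called. The results of 2 list genes are not reported here.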

Additional observations from a re-analysis of the deposited data

Results flagged for a closer look

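TAPBP and PSMB9 differed in direction between the experiments at D10 against D0, in each case by more than 0.1 on the log2 scale. For TAPBP the log2 difference was 0.42 in experiment 1 and -0.15 in experiment 2. For PSMB9 it was 0.11 in experiment 1 and -0.25 in experiment 2, on 98 and 87 counts for D0 and 112 and 67 for D10. With 1 library per experiment and group, the difference between the experiments was not tested. Both of the lower values come from the D10 library of experiment 2, in which the summed fibroblast markers were 21216 CPM, and the part of that library in the result was not tested.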

How the results depend on the processing

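Of the members, 0 were called in all 4 comparisons under each alternative: DESeq2's size factors, DESeq2, total-count scaling, both filters, the compared groups only, the replicate block and leaving out each library. The replicate block changed no call of a member (HLA-B at D10 0.46, adjusted p = 0.239). The class II list had 2 genes called with the block, with no filter and with DESeq2, and 0 with total-count scaling, with at least 10 counts in every library (which leaves 3 of its genes) and with the compared groups only, and 0 to 1 when a library was left out. Of the regulators 3 were called with the block, 1 with no filter and 2 with DESeq2. Over all genes at D10, the block called 4.99%, and DESeq2 2.17% of those with an adjusted p. No such share was computed with no filter. The members called between experiments ranged from 1 to 4 when a library was left out. Beyond the loss of samples or genes, the cause was not tested. Directions turned only when a library was left out. At D4 the log2 differences then ran from -0.20 to 0.29 for HLA-B, -0.23 to 0.47 for HLA-C, -0.23 to 0.43 for HLA-E, -0.47 to 0.29 for TAP1, -0.14 to 0.39 for TAP2, -0.15 to 0.43 for TAPBP and -0.27 to 0.11 for PSMB9. At D7 they ran from -0.01 to 0.47 for HLA-B, -0.28 to 0.41 for HLA-C, -0.22 to 0.41 for HLA-E, -0.36 to 0.24 for TAP1, -0.04 to 0.48 for TAP2 and -0.16 to 0.50 for PSMB9. At D10 they ran from -0.15 to 0.56 for HLA-C, -0.20 to 0.44 for HLA-E, -0.05 to 0.17 for B2M, -0.41 to 0.27 for TAP1, -0.74 to 0.04 for TAP2, -0.45 to 0.68 for TAPBP and -0.44 to 0.29 for PSMB9, while HLA-B stayed between 0.23 and 0.72. Between D10 and D7 they ran from -0.18 to 0.42 for HLA-C, -0.18 to 0.23 for HLA-E, -0.19 to 0.04 for B2M, -0.33 to 0.33 for TAP1, -0.78 to 0.36 for TAPBP and -0.65 to 0.12 for PSMB9. Of the other genes at D10, IRF1 ran from -0.63 to 0.74, MICB from -0.74 to 0.13, NLRC5 from -0.41 to 0.04, PSMB10 from -0.66 to 0.39, PSMB5 from -0.49 to 0.29, PSMB6 from -0.48 to 0.15, PSMB8 from -0.23 to 0.32 and RELA from -0.20 to 0.28. B2M between experiments ran from -0.10 to 0.05. Where 1 library of a group was left, it was assumed to vary like the others. With another scaling the median log2 difference of all genes lay between -0.006 and 0.031 over the comparisons, beside -0.001 to 0.009 in the main fit. HLA-F, with at most 8 counts, failed the main filter and was not called in any comparison with no filter or by DESeq2's test (adjusted p = 1 in each).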

Other observations

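The 5 genes outside the members whose log2 CPM followed the mean of the members' centred log2 CPM most closely over the 8 libraries were NARF (Pearson's r 0.986), PCNX3 (0.975), ATP13A1 (0.972), GALNS (0.968) and DDOST (0.967), the last a subunit of the oligosaccharyltransferase that glycosylates proteins in the endoplasmic reticulum. These correlations describe 8 libraries that share 2 experiments and were searched for over all genes tested. The mean of the members was 0.18 and -0.31 for D0, 0.16 and -0.18 for D4, 0.08 and 0.08 for D7, and 0.31 and -0.32 for D10 in experiments 1 and 2, so that the order followed the experiments at D0, D4 and D10. DDOST was at 522 and 370 CPM at D0 and 589 and 364 at D10.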
